A study of Arabidopsis thaliana with 24 samples.

Results

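Rosettes of water-limited Arabidopsis thaliana were compared between the arrays labelled pre-dawn and the arrays labelled late day, 3 against 3, which are 6 of the 24 arrays of the study. The plants were wild type of the Columbia-0 accession and 32 days old, and each sample was a whole rosette. They grew in soil under a 12 h photoperiod, were watered for 28 days, and then went 4 days without water. Rosettes labelled pre-dawn carry the clock time 6 h and those labelled late day 18 h. The well-watered plants used beside them had the same genotype, age, tissue and labelled times, 3 arrays each, and differed in that watering went on throughout. The design calls the 3 arrays of a group biological replicates. The number of plants behind an array, and the hour at which the chamber lights came on, are not given in the sources used here. Of 22746 probe sets that are not controls, the 11926 with a level of 5 log2 or more in at least 3 of the 24 arrays were tested. Levels are GCRMA values on the log2 scale, so a difference of 1 log2 is a doubling. The arrays labelled pre-dawn are called PD arrays below and those labelled late day LD arrays. Values of arrays follow the order of replicates 1 to 3.

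Plants anticipate day and night with a circadian clock, a set of transcription factors and partner proteins that repress each other in turn over the day. In leaves this clock, light and the sugar supply together set the daily course of many transcripts. Starch is built in the chloroplast by day and broken down by night, expansins loosen cell walls in growth phases that recur daily, and cold- and dehydration-responsive genes are gated by the clock. Water limitation is known to add stress signals, among them abscisic acid, and can raise anthocyanin pigments in the leaf.

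The arrays' time labels were first set against genes of known daily phase. GI (GIGANTEA, AT1G22770), a clock gene whose transcript is known to be high toward the end of the light period and low around dawn, had levels of 8.66, 8.38 and 8.53 log2 in the water-limited PD arrays and of 2.32, 2.31 and 2.32 in the LD arrays. The well-watered arrays gave the same order, with 8.51, 8.47 and 8.33 against 2.32 in all 3 LD arrays. GI averaged 8.32 ± 0.06 log2 (SD, n = 3) in the water-limited arrays labelled midnight and 2.32 ± 0.01 in those labelled midday. AT5G26570, which the annotation lists as PWD (phosphoglucan, water dikinase), is a starch-breakdown gene whose transcript is likewise known to be high toward the end of the light period. It was also highest in the PD arrays, at 10.82 ± 0.2 log2, and lowest in the LD arrays, at 7.72 ± 0.7. The levels of both genes thus go against the time labels, in both water regimes. Every direction below is a direction between arrays as labelled, and the part of the labels in it was not tested.

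**Figure D1:**
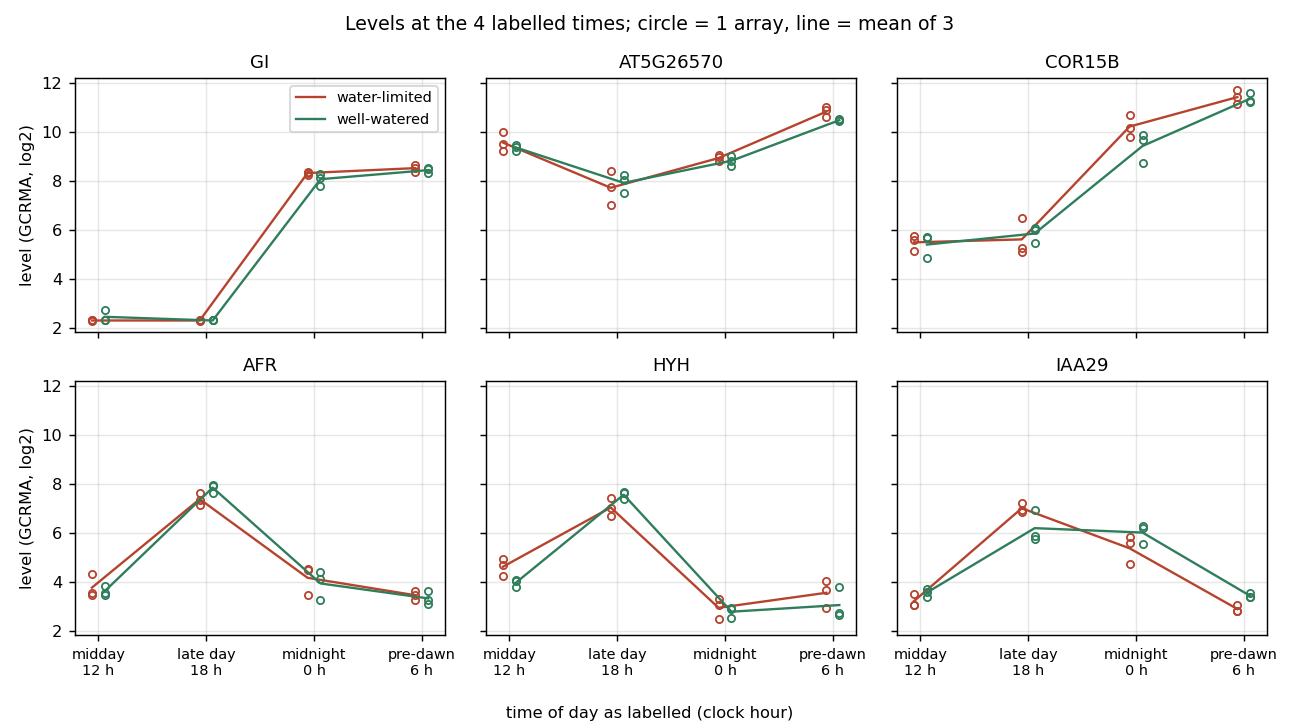
Levels (GCRMA, log2) of 6 genes at the 4 times as labelled, with 1 circle per array and a line through the means of 3 arrays for each water regime. GI, AT5G26570 and COR15B were highest in the arrays labelled pre-dawn in both regimes, while AFR, HYH and IAA29 were highest in those labelled late day.

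One of the 6 arrays stands apart in its plastid signal. The median level of 66 plastid-encoded probe sets was 11.57, 9.38 and 11.45 log2 in the 3 LD arrays and 11.54, 11.2 and 10.63 in the PD arrays, and over the other 23 arrays of the study it ranged from 10.63 to 11.92. LD array 2 therefore had about 2 log2 less plastid signal than its replicates, and the replicate variance averaged over probe sets was largest in the LD group, at 0.177 against 0.0818 in the PD group. The deviations of an array from its group means, over the probe sets tested, had SDs of 0.242, 0.425 and 0.339 log2 in the LD arrays. In the PD arrays the SDs were 0.204, 0.293 and 0.19 log2, so PD array 2 also deviated more than its replicates. Where a gene list's count moved by over 1.5 times without LD array 2, that count is also given. The 3-prime minus 5-prime difference of the actin control probe sets, a sign of RNA length, was 4.58 ± 0.16 log2 in the PD arrays and 4.14 ± 0.11 in the LD arrays; its part in the results was not tested. The same difference was 1.61 ± 0.03 against 1.59 ± 0.14 for GAPDH and 1.1 ± 0.04 against 1.17 ± 0.11 for ubiquitin. Of the cell type markers, 5 were named in the annotation and tested. Both leaf mesophyll markers fell, RCA by 0.67 log2 from 14.45 and LHCB4.2 by 1.73 log2, and their part in the results was not tested. The root-enriched glucosidase gene PYK10 was low, at 5.45 ± 0.5 in the PD arrays and 5.2 ± 0.57 in the LD arrays. FMA (FAMA), a guard-cell lineage factor, was higher in the PD arrays by 1.13 log2 (adjusted p = 0.000815), and the phloem transporter gene SWEET11 was at 11.84 ± 0.33 and 12.18 ± 0.24 log2. In these whole rosettes, fewer cells of a type and less RNA per cell cannot be told apart.

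The PD and LD arrays differed in 5269 of the 11926 probe sets, or 44.2%, at an adjusted p under 0.05 in limma. Of these, 2765 rose, which here means higher in the PD arrays (23.2% of those tested), and 2504 fell (21.0%). Over all 11926 probe sets tested, called or not, the median absolute difference was 0.45 log2 and the 95th percentile 1.88. At least 1 log2 separated the groups in 1107 of the rises and 975 of the falls, and at least 4 log2 in 43 and 41. The median difference over all probe sets was 0.02 log2. The 3 PD arrays did not overlap with the 3 LD arrays in 4714 of the 5269, against 47.9% of all probe sets tested. Without LD array 2 the count was 4186.

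Besides GI and other genes described below, these genes were among the 12 with a symbol that rose most. COR15B and COR15A encode chloroplast proteins that protect membranes in cold and dehydration, PDC2 a pyruvate decarboxylase of fermentation, and UF3GT, AT5MAT and DFR enzymes of anthocyanin synthesis. UGT84A3 encodes a glucosyltransferase of hydroxycinnamic acids and TBL26 a member of the family that acetylates wall polysaccharides. Those that fell most include the vacuolar sugar transporter gene SWEET2, the auxin-response repressor IAA29, the light-signalling genes AFR and HYH, the trichome repressor TRY and the wall genes EXPA8 and EXGT-A3. PDC2 had levels of 10.2, 9.65 and 10.25 log2 in the PD arrays and 4.98, 5.81 and 5.03 in the LD arrays, a rise of 4.76 ± 0.31 log2 (SE, 27.1-fold, adjusted p = 1.64e-10). UGT84A3 was at 7.74, 6.79 and 7.7 against 3.74, 4.97 and 3.65, and rose by 3.29 ± 0.31 log2. TBL26 rose by 3.65 ± 0.34 log2, from a mean of 6.16 ± 0.45 to 9.8 ± 0.37. In all 3 genes the lowest PD array was above the highest LD array, which the choice of these genes requires.

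**Figure D2:**
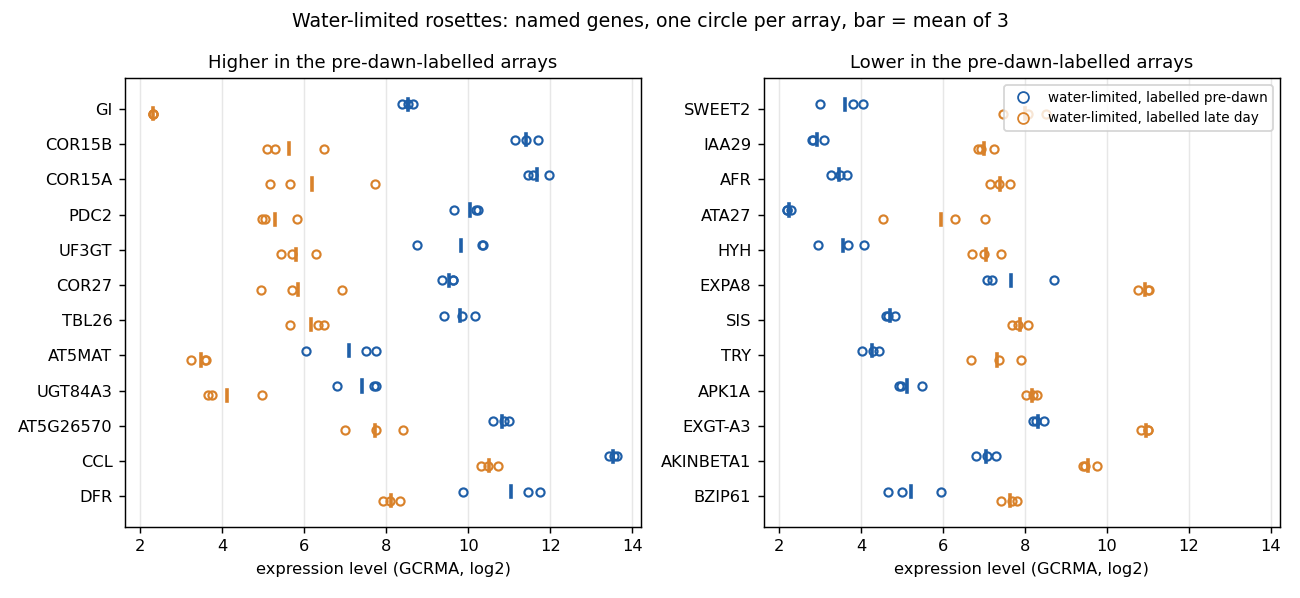
Levels (GCRMA, log2) of the genes with a symbol that changed most, 12 that rose and 12 that fell; each circle is 1 water-limited array and each bar the mean of 3. No gene shown has overlapping arrays, which the choice of the genes requires, and ATA27 and COR15A have the widest spread among LD arrays.

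The gene lists from here on, and their members, were chosen with earlier results of these data known. Their shares beside those of all probe sets are therefore a description and not a test of the lists. Of 8 clock and light-signalling genes tested, 4 rose (50% against 23.2% of all probe sets) and 2 fell (25% against 21.0%). Their median change was 0.26 log2. GI rose by 6.2 ± 0.13 log2 (73.8-fold, adjusted p = 3.75e-18). The arrays given above do not overlap, as its choice among the largest rises requires. Its LD levels lie near the lower limit of the values, so the size of the fold depends on how GCRMA treats dim probe sets. COR27, a cold-regulated repressor tied to the clock, was at 9.37, 9.62 and 9.62 log2 in the PD arrays and at 4.95, 6.91 and 5.71 in the LD arrays. It rose by 3.68 ± 0.4 log2 (adjusted p = 3.07e-07) and was lower still in the arrays labelled midnight, at a mean of 3.25. TIC, a regulator needed for normal clock amplitude, rose by 1.82 ± 0.28 log2 (adjusted p = 2.94e-05). The fourth rise, in the splicing-related gene STIPL1, was 0.7 log2 (adjusted p = 0.0275), and was lost without LD array 1 or 2 or PD array 1 or 3.

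The light-signalling genes moved the other way. AFR, an F-box protein gene of phytochrome A signalling, was at 3.66, 3.26 and 3.49 log2 in the PD arrays and at 7.14, 7.64 and 7.36 in the LD arrays, a fall of 3.91 ± 0.29 on the log2 scale (15-fold, adjusted p = 1.18e-09). HYH, the homologue of the light-response factor HY5, was at 3.69, 2.95 and 4.06 against 7.41, 7.0 and 6.71, and fell by 3.47 ± 0.3 log2 (adjusted p = 8.79e-09). Both genes were high in the LD arrays alone among the 4 water-limited groups, since AFR averaged 3.78 at midday and 4.18 at midnight and HYH 4.63 and 2.96. LIP1 and FIO1, other genes linked to clock function, differed by -0.45 and -0.18 log2 and did not pass the test.

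Starch and sugar metabolism was among the lists with most rises. Of 12 tested genes 9 rose (75% against 23.2% of all probe sets) and 1 fell (8.33% against 21.0%). The median change was 0.87 log2 against 0.02 over all probe sets. For starch breakdown, AT5G26570 was at 11, 10.61 and 10.87 log2 in the PD arrays and 7.75, 7.0 and 8.41 in the LD arrays, and rose by 3.11 ± 0.26 log2 (8.61-fold, adjusted p = 5.87e-09). DPE1, the disproportionating enzyme that acts on maltotriose from starch, was at 8.82, 9.05 and 9.06 against 6.76, 7.23 and 6.86, a rise of 2.03 ± 0.16 log2 (adjusted p = 4.32e-09). The groups did not overlap in either gene, which for AT5G26570 its choice among the largest rises with a symbol requires. AT4G24450, which carries the same symbol PWD in the annotation, rose by 2.17 log2 (adjusted p = 0.00371) from a mean of 4.19 ± 0.84. Of 3 genes of starch synthesis, 2 rose, and QQS, which is linked to starch content, differed by -0.41 log2 (adjusted p = 0.326). APL3, a large subunit of ADP-glucose pyrophosphorylase, rose by 2.47 ± 0.37 log2, and the branching enzyme gene SBE2.2 by 1.12 ± 0.18 log2. ATSPS4F, a sucrose-phosphate synthase, was at 10.28, 9.4 and 10.21 log2 against 8.18, 7.19 and 9.08 and rose by 1.81 ± 0.36 log2 (adjusted p = 0.000384). The single fall was that of GAPC2, cytosolic glyceraldehyde-3-phosphate dehydrogenase, by 0.36 log2 from a mean of 13.43. Without LD array 2, 8 members rose and 1 fell.

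Sugar transporters split by gene. SWEET2 was at 3.8, 3.0 and 4.05 log2 in the PD arrays and 8.06, 8.5 and 7.45 in the LD arrays, and fell by 4.38 ± 0.37 log2 (20.9-fold, adjusted p = 7.03e-09). The other 5 SWEET genes tested did not pass, and their changes lay between -0.45 and 1.1 log2. The vacuolar monosaccharide transporter gene TMT2 rose by 1.46 ± 0.22 log2 (adjusted p = 1.67e-05), while the sugar-porter family genes SFP1 and SFP2 fell by 1.22 and 1.76 log2. In all, 1 of 10 rose (10% against 23.2% of all probe sets) and 3 fell (30% against 21.0%). The share called, 40%, was below the 44.2% of all probe sets. Without LD array 2, 2 rose and 3 fell. AKINBETA1, a regulatory subunit of SnRK1, the kinase that responds to low sugar, fell by 2.49 ± 0.18 log2 (adjusted p = 6.49e-10), from 9.41, 9.76 and 9.45 in the LD arrays to 7.28, 6.81 and 7.06.

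Among 16 cold- and dehydration-responsive genes, 8 rose (50% against 23.2% of all probe sets) and 3 fell (18.8% against 21.0%), with a median change of 0.47 log2. Without LD array 2, 8 rose and 2 fell. COR15B was at 11.13, 11.7 and 11.41 log2 in the PD arrays and at 5.1, 6.49 and 5.28 in the LD arrays. It rose by 5.79 ± 0.34 log2 (55.4-fold, adjusted p = 3.98e-11). COR15A, its neighbour in sequence and function, was at 11.45, 11.96 and 11.59 against 5.17, 7.72 and 5.65, a rise of 5.49 ± 0.65 log2 (adjusted p = 8.66e-07). LD array 2 was the highest of the LD arrays in both genes, and without it the rises were 6.23 and 6.26 log2. As near copies, both genes could share signal between their probe sets. COR47, a dehydrin gene, rose by 2.43 ± 0.28 log2, and LTI30, another dehydrin gene, by 2.16 ± 0.69 log2 (adjusted p = 0.0147). LTI30 varied most in the LD arrays, at 4.55, 8.32 and 6.31 log2, so that its rise was 3.12 log2 without LD array 2 and did not pass without LD array 1 (1.24 log2, adjusted p = 0.127). The falls were those of SIS, a salt-induced gene (9.01-fold lower), HVA22C (fell by 1.34 log2) and DI21 (fell by 0.92 log2, not past the threshold without LD array 2).

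The flavonoid and anthocyanin list holds 6 tested genes, of which 5 rose (83.3% against 23.2% of all probe sets) and none fell. As its members were chosen with earlier results known, this share is a description. The median change was 2.01 log2. Its members include CHIL, a chalcone isomerase-like protein that acts early in the pathway, and DFR, at the first step committed to anthocyanidins. UGT78D1 and UGT78D2 encode flavonoid glycosyltransferases, and UF3GT and AT5MAT enzymes that decorate the anthocyanin with xylose and malonate. DFR was at 11.76, 9.88 and 11.46 log2 in the PD arrays and 7.93, 8.33 and 8.08 in the LD arrays, a rise of 2.92 ± 0.5 log2 (7.57-fold, adjusted p = 9.51e-05). UF3GT was at 10.37, 8.74 and 10.34 against 5.69, 6.28 and 5.43 and rose by 4.02 ± 0.49 log2 (16.2-fold, adjusted p = 1.42e-06). AT5MAT was at 7.76, 6.03 and 7.5 against 3.23, 3.61 and 3.57 and rose by 3.63 ± 0.45 log2 (12.3-fold, adjusted p = 1.89e-06). PD array 2 was the lowest of the PD arrays in all 3 genes. It lay above every LD array, as their choice among the largest rises with a symbol requires. UGT78D2 was at 9.65, 8.16 and 9.73 against 8.02, 8.55 and 7.66, so that PD array 2 overlapped with the LD arrays, and rose by 1.1 ± 0.33 log2 (adjusted p = 0.0112), a call lost without LD array 3 or PD array 1 or 3. UGT78D1 rose by 0.7 ± 0.26 log2 (adjusted p = 0.0338; 0.0573 without LD array 2), and was lost also without LD array 1 or 3 or PD array 1 or 3. CHIL was at 6.64, 4.98 and 6.93 against 6.01, 5.85 and 5.39 and differed by 0.44 ± 0.33 log2 (adjusted p = 0.29). With any 1 array left out, between 3 and 6 members rose.

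**Figure D3:**
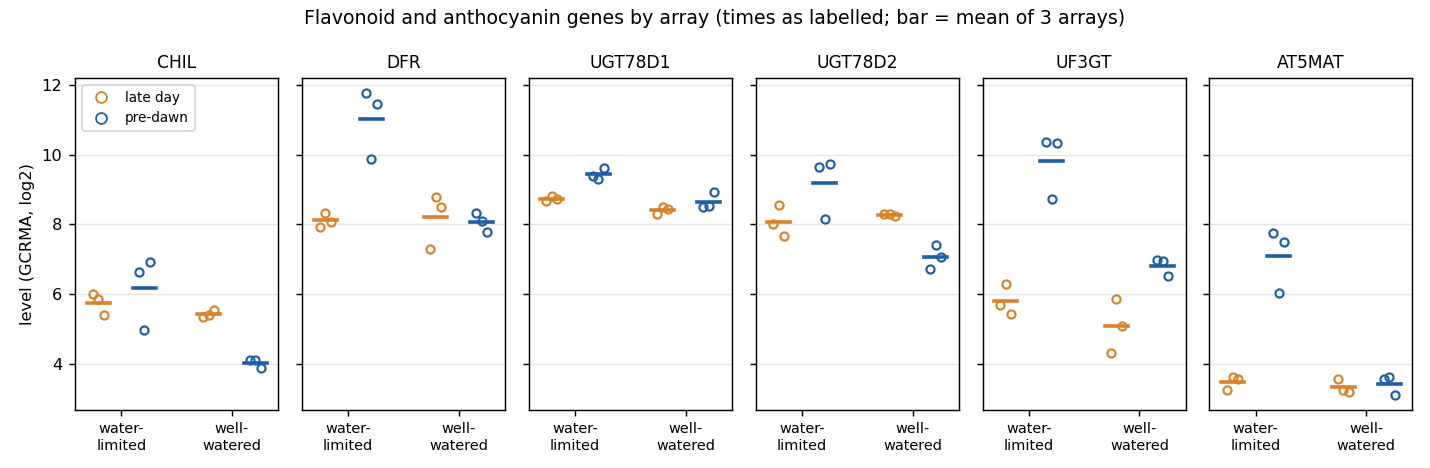
Levels (GCRMA, log2) of the 6 flavonoid and anthocyanin genes in the 12 arrays of both regimes, in late-day and pre-dawn arrays as labelled; circles are arrays and bars means of 3. In DFR, UF3GT and AT5MAT every water-limited pre-dawn array lies above the other 9 arrays, and pre-dawn array 2 lies below arrays 1 and 3. For the water-limited late-day arrays, the choice of these genes requires this.

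Of 12 expansin and xyloglucan-enzyme genes tested, none rose, 6 fell (50% against 21.0% of all probe sets) and 6 did not pass, with a median change of -0.64 log2; without LD array 2, 4 fell. EXPA8, an alpha-expansin, was at 7.07, 8.71 and 7.19 log2 in the PD arrays and 11.01, 10.75 and 10.99 in the LD arrays. It fell by 3.26 ± 0.3 log2 (9.6-fold, adjusted p = 2.37e-08). EXGT-A3, a xyloglucan endotransglucosylase, was at 8.27, 8.46 and 8.19 against 10.99, 10.99 and 10.83 and fell by 2.63 ± 0.2 log2 (adjusted p = 1.18e-09). The groups did not overlap in either gene, as their choice among the largest falls with a symbol requires. PD array 2 was the highest PD array in both. EXPA16 fell by 1.88 ± 0.32 log2 and EXPB1, a beta-expansin, by 1.08 ± 0.34 log2 (adjusted p = 0.0134; 0.0755 without LD array 2, and lost as well without PD array 1).

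Of 13 hormone-response genes, 2 rose (15.4% against 23.2% of all probe sets) and 7 fell (53.8% against 21.0%), with a median change of -0.55 log2; without LD array 2, 1 rose and 5 fell. IAA29 was at 2.81, 3.09 and 2.83 log2 in the PD arrays and 6.86, 7.24 and 6.92 in the LD arrays, a fall of 4.09 ± 0.28 log2 (17.1-fold, adjusted p = 3.12e-10). IAA18, of the same Aux/IAA repressor family, fell by 1.13 ± 0.16 log2 (adjusted p = 8.14e-06). Type-A cytokinin response regulators fell too: ARR15 by 1.26 ± 0.29 log2 and RR16 by 0.97 ± 0.3 log2 (adjusted p = 0.0124; 0.0736 without LD array 2). GID1A, a gibberellin receptor gene, rose by 1.11 ± 0.29 log2 (adjusted p = 0.00407), whereas GID1B and GID1C each differed by 0.39 log2 and did not pass.

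The nuclear genes of photosynthesis showed no common direction. Of 15 photosystem and electron-transport genes, 5 rose and 5 fell (33.3% each, against 23.2% and 21.0% of all probe sets), with a median of -0.02 log2. Without LD array 2, 4 rose and 3 fell, and without PD array 1, 3 rose. PIFI, a factor of chlororespiration at the NDH complex, was at 12.72, 12.36 and 12.66 log2 in the PD arrays and 10.07, 10.38 and 10.16 in the LD arrays and rose by 2.38 ± 0.16 log2 (5.21-fold, adjusted p = 2.17e-10). NdhN, a subunit of the same complex, rose by 1.04 ± 0.15 log2. LHCB4.2, a minor antenna protein of photosystem II, went the other way, with 11.6, 12.22 and 11.55 against 13.68, 13.31 and 13.56, a fall of 1.73 ± 0.16 log2 (adjusted p = 2.83e-08). Its paralogue LHCB4.1 differed by -0.33 log2 (adjusted p = 0.0503), and LHCB4.3 rose by 0.42 log2 (adjusted p = 0.0427). LHCB4.3 no longer passed without LD array 1 or 3 or PD array 1 or 3, each left out alone. Of 15 assembly-factor genes 4 rose (26.7% against 23.2%) and 5 fell (33.3% against 21.0%). Of 8 carbon-fixation genes 2 rose and 2 fell (25% each), or 1 and 3 without LD array 2. RCA, the Rubisco activase gene, fell by 0.67 ± 0.15 log2 from a mean of 14.45, and the thioredoxin gene ATHM2 rose by 0.62 log2.

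In chlorophyll and haem synthesis, 4 of 11 tested genes fell (36.4% against 21.0% of all probe sets) and none rose (against 23.2%). The median change was -0.36 log2. The share called in either direction, also 36.4%, was below the 44.2% of all probe sets. Of the falls, 3 were in the magnesium branch and later steps. LIL3:2, a light-harvesting-like protein that stabilises geranylgeranyl reductase, was at 10.16, 10.43 and 10.24 log2 in the PD arrays and 11.68, 11.63 and 11.51 in the LD arrays and fell by 1.33 ± 0.12 log2 (adjusted p = 1.88e-08). AT1G74470, annotated as geranylgeranyl reductase, fell by 1.28 ± 0.16 log2, and CHLM, the magnesium-protoporphyrin methyltransferase gene, by 1.08 ± 0.16 log2. HEME2, of the earlier uroporphyrinogen steps, fell by 0.7 log2 (adjusted p = 0.0303) and was lost without LD array 1 or 2 or PD array 1 or 3.

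Of 66 plastid-encoded probe sets, none rose and 1 fell, or 1.52% against 44.2% of all probe sets. This count depends on single arrays, in both directions: without LD array 1, 8 rose and none fell, and without LD array 2 none rose and 7 fell. The photosystem I gene psaA was at 12.12, 11.58 and 10.33 log2 in the PD arrays and at 11.76, 6.9 and 11.33 in the LD arrays, and its change of 1.35 ± 0.78 log2 (adjusted p = 0.17) became -0.2 log2 without LD array 2. The median change of the 66 went from 0.05 to -0.47 log2 without that array. The gene that passed with all arrays was rpl36, a ribosomal protein gene, which fell by 1.01 ± 0.33 log2 (adjusted p = 0.0172).

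Of 16 cytoskeletal and cell-division genes, 6 rose (37.5% against 23.2% of all probe sets) and 2 fell (12.5% against 21.0%). The share called was 50% against 44.2%. Of the 7 tubulin genes 6 rose and 1 fell, and none of 5 histone genes passed in either direction. TUB9, a beta-tubulin, was at 10.01, 10.48 and 10.19 log2 in the PD arrays and 8.93, 8.66 and 8.89 in the LD arrays and rose by 1.4 ± 0.13 log2 (adjusted p = 2.32e-08). TUB1 and TUB5 rose by 1.14 and 1.09 log2, and TUA1, an alpha-tubulin, fell by 0.49 log2 (adjusted p = 0.021). Tubulins are a family of close copies, so signal may be shared between their probe sets. The histone chaperone gene ASF1B fell by 1.48 log2 (adjusted p = 0.00198). The 5 histones changed by between -0.44 and 0.25 log2.

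Of 10 chaperone genes, 6 rose (60% against 23.2% of all probe sets) and none fell, with a median of 0.7 log2. With 1 array left out the rises numbered 4 to 6. Fes1B, a nucleotide exchange factor of Hsp70, was at 6.29, 6.98 and 6.27 log2 in the PD arrays and 4.27, 3.8 and 4.39 in the LD arrays and rose by 2.36 ± 0.24 log2 (adjusted p = 9.68e-08). The plastid chaperonin genes Cpn60beta4 and Cpn60beta3 rose by 1.54 and 1.2 log2, and Hsp70-2 by 1.15 log2. Endoplasmic-reticulum folding genes gave 3 rises and 2 falls in 14, or 35.7% called against 44.2% of all probe sets. Of 10 ribosome-biogenesis genes 3 fell (30% against 21.0% of all probe sets) and none rose, so the share called was below 44.2%. Without LD array 2, 7 fell. DIM1A, an rRNA dimethylase gene, had the largest fall, 1.6 ± 0.13 log2 (adjusted p = 7.48e-09), from 8.36, 8.25 and 8.34 to 6.72, 6.78 and 6.66.

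Nitrogen and sulfur genes split by member. In amino acid breakdown 4 of 16 rose and 2 fell, or 37.5% called against 44.2% of all probe sets; without LD array 2, 3 rose and 1 fell. ALDH6B2, a dehydrogenase of valine breakdown, rose by 1.23 ± 0.15 log2, and D2HGDH, a hydroxyglutarate dehydrogenase that feeds the electron-transfer flavoprotein, rose by 1.46 ± 0.24 log2. The largest fall was that of AAH, allantoate amidohydrolase of ureide breakdown, which went from 8.65, 8.84 and 8.83 in the LD arrays to 7.07, 6.03 and 7.3 in the PD arrays, by 1.97 ± 0.24 log2 (adjusted p = 1.1e-06). Of 15 sulfur and glutathione genes 3 rose (20% against 23.2% of all probe sets) and 5 fell (33.3% against 21.0%). Both glutathione reductase genes fell, GR1 by 1.08 ± 0.14 and the plastid form GR by 0.86 ± 0.14 log2. Of 11 autophagy genes 2 rose and 1 fell, or 27.3% called, which is below the share of all probe sets. The fall was that of ATG8E, one of the ubiquitin-like proteins of the autophagosome membrane, by 1.72 ± 0.22 log2 (adjusted p = 2.51e-06), and ATG3, which conjugates them to lipid, rose by 0.77 ± 0.14 log2.

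Defence-related lists moved in small numbers, given beside the 23.2% of all probe sets that rose and the 21.0% that fell. Of 5 glucosinolate genes 3 rose (60%), or 2 without LD array 2. The transporter gene GTR1 rose by 1.82 ± 0.16 log2 (adjusted p = 9.86e-09) and BCAT4, which starts methionine chain elongation, by 1.18 log2. The glucosyltransferase gene UGT74B1 rose by 0.95 log2 (adjusted p = 0.0137, lost without LD array 2 or PD array 1). GTR2 differed by -0.35 log2 (adjusted p = 0.0888) and PYK10 by 0.25 log2 (adjusted p = 0.754). Of 8 defence and jasmonate genes 2 rose (25%) and 1 fell (12.5%), or 1 and 1 without LD array 2. OPCL1, a ligase of jasmonate synthesis, rose by 1.81 ± 0.2 log2, while the jasmonate-response factor gene MYC4 fell by 1.29 ± 0.26 log2. The defensin gene PDF1.2 had SDs of 1.71 and 2.43 log2 within the PD and LD groups, wider than its difference of -0.83 log2. Of 7 stress transcription factor genes 3 rose (42.9%) and 1 fell (14.3%), and without LD array 2, 1 rose and none fell. STZ, a zinc-finger repressor, rose by 1.62 ± 0.52 log2 (adjusted p = 0.0147), which was lost without LD array 1 or 3 or PD array 3.

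**Figure D4:**
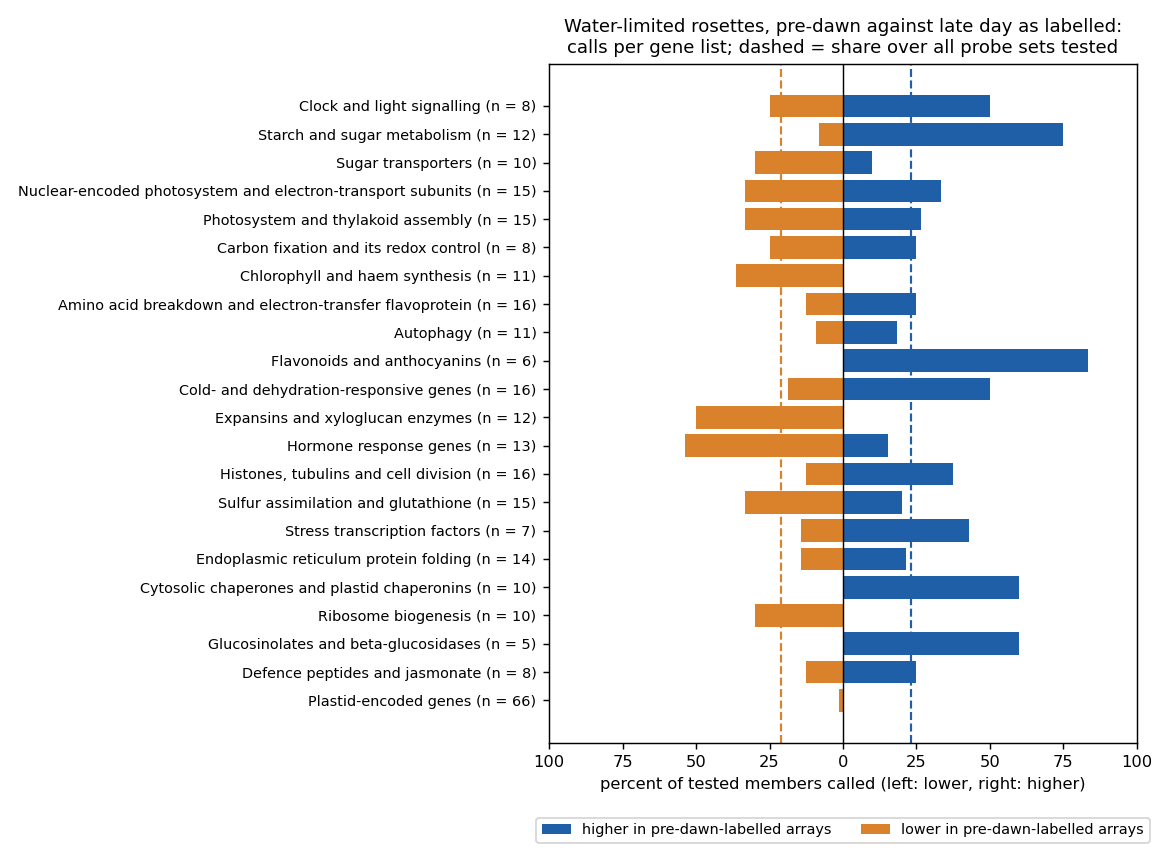
Percent of the tested members of each gene list that were called at an adjusted p under 0.05, higher in pre-dawn arrays to the right and lower to the left, as labelled. Dashed lines mark the shares over all 11926 probe sets, 23.2% higher and 21.0% lower. Starch and sugar metabolism and flavonoids lie far right, and plastid-encoded genes near 0. The lists were chosen with earlier results of these data known, so the shares are a description.

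Among called probe sets with 1 gene and no overlap of arrays, most of the 12 largest rises and falls were loci without a symbol, as are most tested probe sets with 1 gene (956 of 6293 have a symbol). AT1G07050 was at 9.43, 9.61 and 8.97 log2 in the PD arrays and 2.5, 2.46 and 2.24 in the LD arrays and rose by 6.94 ± 0.17 log2 (122-fold, adjusted p = 3.73e-17). The next largest rises without a symbol were in AT4G16146, by 6.3 log2, AT1G56300, by 6.03, AT4G34950, by 5.37, AT2G23910, by 5.12, AT1G51090, by 4.78, AT4G30650, by 4.66, and AT1G11210, by 4.45. AT1G56300 and AT1G51090 were also high in the arrays labelled midnight, at 10.32 and 8.19 log2, whereas AT2G23910 was at 2.41 there. All 3 LD arrays of AT1G07050, GI and AT2G23910 lay below 3 log2, as did those of 12 rising probe sets in all, and all 3 PD arrays of 22 falling probe sets lay below it, AT3G15310 and ATA27 among them. The size of such changes depends on the lower limit of the values.

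AT2G41250 had the largest fall, from 11.44, 11.38 and 12.06 log2 in the LD arrays to 4.46, 3.69 and 4.4 in the PD arrays, by 7.44 ± 0.63 log2 (174-fold, adjusted p = 7.67e-09). AT3G15310 fell by 5.75 log2, AT1G49200 by 5.35, AT1G64500 by 5.31, AT1G69160 by 5.21, AT1G75180 by 5.02, AT5G48490 by 4.44, AT1G68440 by 4.19 and AT3G19030 by 4.16. AT5G54130, which has 2 tested probe sets, fell by 4.55 log2 in the brighter one. In 1 of these large falls the arrays of a group differed widely: AT1G66850 was at 6.18, 10.24 and 7.37 log2 in the LD arrays, fell by 4.59 ± 1.34 log2 (adjusted p = 0.00862), and reached an adjusted p of 0.0655 without LD array 2. ATA27, a glucosidase gene first named from anthers, was similar, at 4.53, 7.01 and 6.29 log2 in the LD arrays and at 2.2, 2.29 and 2.2 in the PD arrays, where 2.2 is the lowest value in the table. It fell (adjusted p = 0.00179; 0.0144 without LD array 2), by an amount that these values at the lower limit do not fix.

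The other labelled times of the water-limited plants are set beside these changes. Midnight and midday are names as labelled, and GI and AT5G26570 go against the labels, so the true time of day is not fixed. Of the 2765 rises, 1960 had their highest group mean in the PD arrays, 562 at midnight and 243 at midday. Of the 2504 falls, 2114 had their highest mean in the LD arrays, 210 at midday and 180 at midnight. The midnight mean was nearer to the PD mean than to the LD mean for 62.7% of the rises and 68.7% of the falls. Midday lay nearer to LD for 41.5% and 52.7%. The PD and LD arrays chose these genes, so a rise cannot be highest in the LD arrays nor a fall in the PD arrays, and the shares are a description.

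Well-watered rosettes changed much as the water-limited ones did. In them 5122 probe sets passed (42.9%), 2609 of them higher in the PD arrays (21.9%) and 2513 lower (21.1%). Of the water-limited rises, 67.5% also rose in well-watered plants, and these made up 71.5% of the well-watered rises; for the falls the shares were 70.7% and 70.4%. The regimes share no array here. Across probe sets the changes of the regimes had a Pearson correlation of 0.87 and a Spearman correlation of 0.81, given as a description over 11926 probe sets that are not independent. The change was 6.12 log2 for GI in well-watered plants against 6.2, and 5.49 for COR15B against 5.79. SWEET2 changed by -4.81 against -4.38 and AFR by -4.51 against -3.91.

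The difference between the regimes was tested itself and passed in 25 probe sets, 0.21% of those tested, 15 of them with the more positive change under water limitation. At an unadjusted p under 0.05 there were 1545. The 25 depend on single arrays: limma found 0 at the same threshold without water-limited PD array 1 or 3, well-watered LD array 2 or well-watered PD array 1 (with 1027, 1013, 1111 and 1094 at an unadjusted p under 0.05), 5 without water-limited LD array 1, 13 without well-watered LD array 3, 16 without well-watered PD array 3, 38 without well-watered PD array 2, 49 without water-limited LD array 2 and 391 without water-limited PD array 2. The regime differences below are all affected by this. AT5MAT rose by 3.63 log2 under water limitation, while its well-watered levels were 3.57, 3.61 and 3.11 in the PD arrays and 3.56, 3.24 and 3.2 in the LD arrays, a change of 0.1 log2 (difference 3.53 ± 0.64 log2, adjusted p = 0.0282). UGT78D2 rose by 1.1 log2 under water limitation and fell by 1.22 log2 with water, from 8.3, 8.29 and 8.24 to 6.72, 7.4 and 7.07 (difference 2.32 log2, adjusted p = 0.0389). The differences of the other 4 genes of the list did not pass: 3.06 log2 for DFR (adjusted p = 0.0692), 2.29 for UF3GT (adjusted p = 0.159), 1.84 for CHIL (adjusted p = 0.0831) and 0.46 for UGT78D1 (adjusted p = 0.649). Of the 6 flavonoid genes, 1 rose and 2 fell in well-watered plants, where 21.9% of all probe sets rose and 21.1% fell.

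The other genes with the smallest p for the regime difference carry no symbol. AT3G06780 did not pass the test under water limitation (-0.13 log2, adjusted p = 0.615), where it was at 7.08, 6.59 and 6.98 log2 in the water-limited PD arrays and 6.94, 7.05 and 7.05 in the LD arrays, and in well-watered plants it fell by 1.74 log2, from 7.48, 7.58 and 7.26 to 5.61, 5.78 and 5.69. AT3G61820 rose in both regimes, by 0.82 and 1.78 log2. AT1G28395, AT5G41670 and AT1G33590 fell under water limitation by 0.79, 0.66 and 0.46 log2 and rose with water by 0.65, 0.79 and 0.69 log2. Without LD array 2 the water-limited falls of AT5G41670 and AT1G33590 had adjusted p of 0.0788 and 0.0693. AT3G10530 rose with water by 2.13 log2 and changed by 0.44 log2 under water limitation, and AT1G66940 fell by 0.34 log2 with water and by 1.16 log2 under water limitation. In EXPA8 and Fes1B the difference between the regimes did not pass (adjusted p = 0.0849 and 0.0692).

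**Figure D5:**
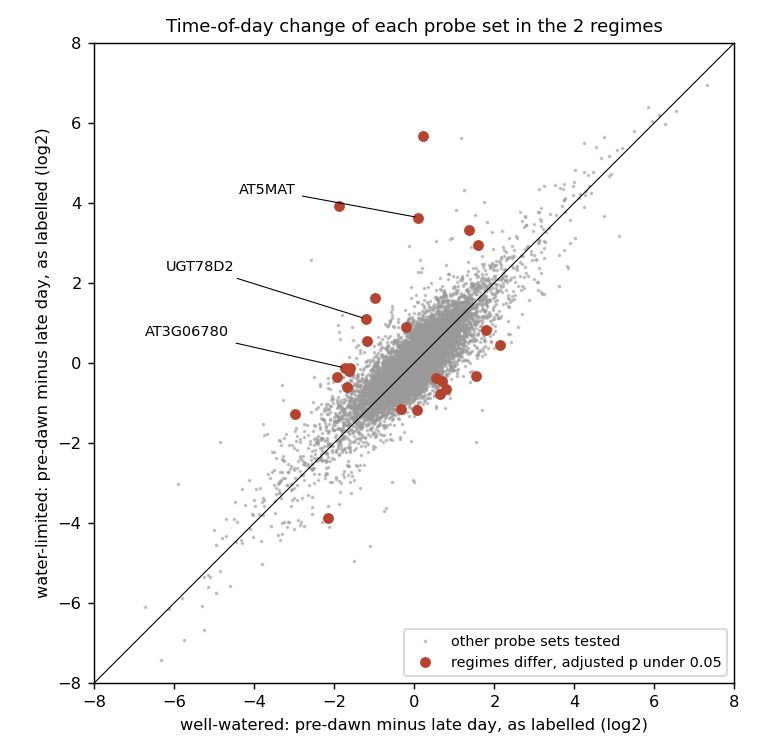
Change between pre-dawn and late-day arrays, as labelled, of each of the 11926 probe sets in well-watered plants (horizontal, log2) and water-limited plants (vertical, log2), with the line of equal change. The 25 probe sets whose change differed between the regimes are filled circles; AT5MAT lies at 0.1 and 3.63 log2.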

How the data were processed

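Expression was measured on 24 Affymetrix arrays. The deposited values are on the log2 scale, computed by the authors with GCRMA per the submitters' processing notes, whose version the sources used here do not state. The values were used as deposited, with 64 control probe sets left out.

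A limma 3.58.1 model (R 4.3.3) fitted 8 group means over all arrays with 1 shared spread (16 residual and 4.57 prior degrees of freedom). Tests were two-sided and adjusted by Benjamini-Hochberg over the 11926 probe sets. The number of arrays limits precision, and p-values measure the spread between replicates, pooled over the 8 groups. The water-limited LD group had the largest mean replicate variance of these, 0.177, so on average the pooled spread is below its own.

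Gene names come from the platform annotation and TAIR10.1: 6293 tested probe sets have 1 gene, 956 of them a symbol. Named genes are the 12 largest rises and falls among called probe sets with 1 gene and no overlap of arrays, the same among genes with a symbol (added after the annotation was read), the 8 smallest p of the regime difference, and members of 22 lists, with up to 8 examples each. A gene with several probe sets is given by the brightest. Lists hold only annotated genes, and members that failed the filter are left out. The members and lists were chosen with earlier results of these data known. Promoter motifs were not analysed here.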

Additional observations from a re-analysis of the deposited data

Results flagged for a closer look

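For 9 named genes the change between PD and LD arrays differed between the water regimes by the test of the difference in limma. The difference, water-limited minus well-watered, was 3.53 log2 for AT5MAT, 2.32 for UGT78D2 and 1.61 for AT3G06780. It was -0.97 log2 for AT3G61820, -1.44 for AT1G28395, -1.69 for AT3G10530, -1.45 for AT5G41670, -0.82 for AT1G66940 and -1.15 for AT1G33590. Each of the 9 lost the threshold in some recomputation. For AT5MAT the value stayed between 3.2 and 4.06 log2 and the adjusted p between 0.000904 and 0.133, and for UGT78D2 between 2.04 and 2.87 log2 with adjusted p from 0.000568 to 0.191.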

How the results depend on the processing

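The count of 5269 between PD and LD arrays of water-limited plants stayed within 1.5 times under all but 1 setting: it fell to 2082 (1107 rises, 975 falls) when a change of at least 1 log2 was also asked for. With the 6 arrays alone it was 3528, with 1770 rises. With 1 weight per group, a setting chosen after seeing the data, it was 4286. Leaving out each array in turn gave 4186 to 5681 calls (2184 to 2941 rises, 1999 to 2740 falls); calls and rises were lowest without LD array 2 and falls without PD array 1. The well-watered count of 5122 became 2106 (1008 rises, 1098 falls) with the 1 log2 limit and 4036 to 5514 with an array left out (2002 to 2835 rises, 2034 to 2679 falls).

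The 25 regime differences (15 higher, 10 lower) were far less stable. They became 1123 with array quality weights (569 higher, 554 lower), 0 with 1 weight per group, a setting chosen after seeing the data, and 2 with the 12 PD and LD arrays alone (2 higher, 0 lower). With an array left out they ranged from 0 to 391 (0 to 203 higher, 0 to 188 lower). The cause was not tested.

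With the replicate number as a block, the water-limited count was 5265 and the regime differences numbered 41 (28 higher). Arrays of equal number did not deviate together (correlations of 0.072, 0.062 and -0.059 in water-limited plants), so the number is not treated as a pairing.

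Of 157 listed or named genes past the threshold, 114 passed under every alternative, 24 were lost without LD array 2, and no change reversed. Of 176 that did not pass, 53 passed under at least 1 alternative. The value floor limits changes of dim probe sets.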
